A study of Homo sapiens with 10 samples.

Results

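The 7 genes described here are targets of the stress transcription factors ATF4 and CHOP, with SDF2L1, a partner of endoplasmic reticulum (ER) chaperones, included for contrast. They are TRIB3, DDIT3, ASNS, PSAT1, DDIT4, SESN2 and SDF2L1, taken by gene symbol from the probe annotation. They were chosen with earlier results of these data known, so the calls below are no independent test of them. Each gene had 1 probe set, and all 7 were among the 10797 genes tested of 14884 named. The arrays (Affymetrix, 53617 probe sets) measured RNA of 5 untreated lines derived from HCT116 cells, which come from a human colorectal carcinoma. WT is the wild-type line, ORC1B14 and ORC1BP32 carry mutations of ORC1, and ORC2B2 and ORC2BP8 carry mutations of ORC2. ORC1 and ORC2 encode subunits of the origin recognition complex, which marks the sites where DNA replication starts. The labels do not give the kind of mutation or whether a mutant line is 1 clone. Every line had 2 arrays titled as biological replicates, with no word on separate cultures, so the p-values rest on a spread between samples that may be technical only.

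ATF4 is the main transcription factor of the integrated stress response. Kinases that sense amino acid shortage, unfolded proteins in the ER, double-stranded RNA or lack of heme phosphorylate the initiation factor eIF2, which lowers general translation and raises translation of ATF4. ATF4 then binds composite C/EBP-ATF elements in genes of amino acid synthesis, transport and tRNA charging, and it induces CHOP, the product of DDIT3. SDF2L1 belongs to the ER chaperone response, which is driven mainly by ATF6 and XBP1.

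TRIB3, DDIT3, ASNS and DDIT4 were lower, and SDF2L1 was higher, on the mean of the mutant lines than in WT, with DDIT4 in ORC1B14 overlapping WT. On that mean of 4 lines TRIB3 was 3.32-fold, DDIT3 2.93-fold, ASNS 2.61-fold and DDIT4 2.20-fold lower, and SDF2L1 was 2.24-fold higher. PSAT1 (1.89-fold) and SESN2 (1.86-fold) also had lower means in the mutant lines but did not pass the test in that comparison. These are 4 lower and 1 higher calls of 7, where 0.602% of the 10797 genes were called lower and 0.417% higher.

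The promoters of 4 members are shown because they place known stress elements, or windows with no match to them, beside the genes whose values follow. The sequences are RefSeq's (GRCh38.p14), read 5′ to 3′ on the strand of the gene and ending at the base before the first listed start site. The searches covered 250 bases before each start on both strands. In the ASNS promoter (chr7:97872409-97872528, minus strand) the capitals mark a C/EBP-ATF element, TGATGNAA with its free base in lower case, 68 bases before the start, and the second nutrient-sensing element GTTACAG, 48 bases before it.
ASNS: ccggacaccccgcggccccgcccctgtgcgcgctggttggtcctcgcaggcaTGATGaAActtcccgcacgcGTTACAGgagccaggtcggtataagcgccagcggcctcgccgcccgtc
In DDIT3 (chr12:57520515-57520764, minus strand) they mark an AP-1 element, TGANTCA, 241 bases before the start, and an ER stress element with its last base left free, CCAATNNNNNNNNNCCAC, 100 bases before it.
DDIT3: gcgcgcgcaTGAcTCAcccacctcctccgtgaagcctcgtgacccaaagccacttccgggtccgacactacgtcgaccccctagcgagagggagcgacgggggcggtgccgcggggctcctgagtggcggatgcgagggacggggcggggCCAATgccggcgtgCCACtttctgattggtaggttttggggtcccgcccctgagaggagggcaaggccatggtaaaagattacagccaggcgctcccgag
TRIB3 (chr20:381145-381294, plus strand) and SDF2L1 (chr22:21642152-21642301, plus strand) had no match in the windows searched and are printed without capitals.
TRIB3: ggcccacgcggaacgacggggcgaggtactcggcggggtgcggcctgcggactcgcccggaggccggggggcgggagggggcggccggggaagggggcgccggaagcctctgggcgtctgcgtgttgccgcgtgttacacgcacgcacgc
SDF2L1: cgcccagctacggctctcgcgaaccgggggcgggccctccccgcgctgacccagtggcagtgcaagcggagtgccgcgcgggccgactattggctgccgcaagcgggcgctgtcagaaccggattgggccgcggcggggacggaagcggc
Nor did PSAT1, DDIT4, SESN2 or the other ASNS start site hold a match. Among 35116 promoters of this length, TGATGNAA occurred in 3.14%, GTTACAG in 1.82%, TGANTCA in 6.57% and the ER stress element in 0.282%. The ER stress element with its last base fixed (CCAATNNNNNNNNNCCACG, every match of which is also a match of the form with a free base) occurred in 0.074%. A match describes letters in these windows, and no binding was measured. Elements with other letters or outside the windows were not searched, so no match does not mean that a gene lacks an element.

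TRIB3 encodes a pseudokinase that is induced by ATF4 and CHOP and acts back on that pathway. Its probe set read 8.28 and 8.40 (log2, replicates 1 and 2) in WT, 6.60 and 6.67 in ORC1B14, 6.38 and 6.32 in ORC1BP32, 6.38 and 7.18 in ORC2B2, and 6.55 and 6.78 in ORC2BP8. All 8 mutant arrays lay below both WT arrays, and the highest of them was ORC2B2 replicate 2. TRIB3 fell by 1.70, 1.99, 1.56 and 1.67 in ORC1B14, ORC1BP32, ORC2B2 and ORC2BP8 (SE 0.25 each, limma adjusted p = 0.0225, 0.0412, 0.0350 and 0.0128). All of these comparisons share the WT arrays. It was called in each of the 4 lines, and its mean over them was 1.73 lower (SE 0.20, adjusted p = 0.0107), rank 14 from the lowest of 10797 genes. The mean lost its call without WT replicate 2 (adjusted p = 0.140). Single lines lost theirs without either WT array, and also without ORC1B14 replicate 1 (ORC1B14), without either array of ORC1B14, ORC1BP32 or ORC2BP8 (ORC1BP32), without either ORC1BP32 array or ORC2B2 replicate 1 (ORC2B2) and without ORC2BP8 replicate 2 (ORC2BP8). ORC1BP32 also lost it without the filter on dim probe sets and under both other scalings, and ORC2B2 with arrays centred on their medians. Over these settings the log2 differences stayed between -2.05 and -1.16.

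DDIT3 encodes CHOP, a C/EBP-family factor induced by ATF4 under lasting ER stress. It read 6.56 and 6.76 in WT, 5.67 and 5.44 in ORC1B14, 4.63 and 5.21 in ORC1BP32, 5.26 and 5.17 in ORC2B2, and 4.45 and 5.05 in ORC2BP8. The WT arrays again lay above all 8 mutant arrays, and ORC1B14 was the highest mutant line. The log2 differences from WT were -1.11, -1.74, -1.44 and -1.91 in the order ORC1B14, ORC1BP32, ORC2B2, ORC2BP8 (SE 0.26 each, limma adjusted p = 0.0866, 0.0740, 0.0489 and 0.00921), so both ORC2 lines were called and neither ORC1 line was. The mean of the 4 lines was 1.55 lower (SE 0.20, adjusted p = 0.0107), rank 25 from the lowest. That call was lost without either WT array (adjusted p up to 0.162), and the ORC2BP8 call without WT replicate 2 (adjusted p = 0.0908). In ORC2B2 it stood only with all arrays or without either ORC2BP8 array, and it was also lost without or with a stricter filter, under both other scalings and with both other variance priors (adjusted p up to 0.273).

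**Figure D1:**
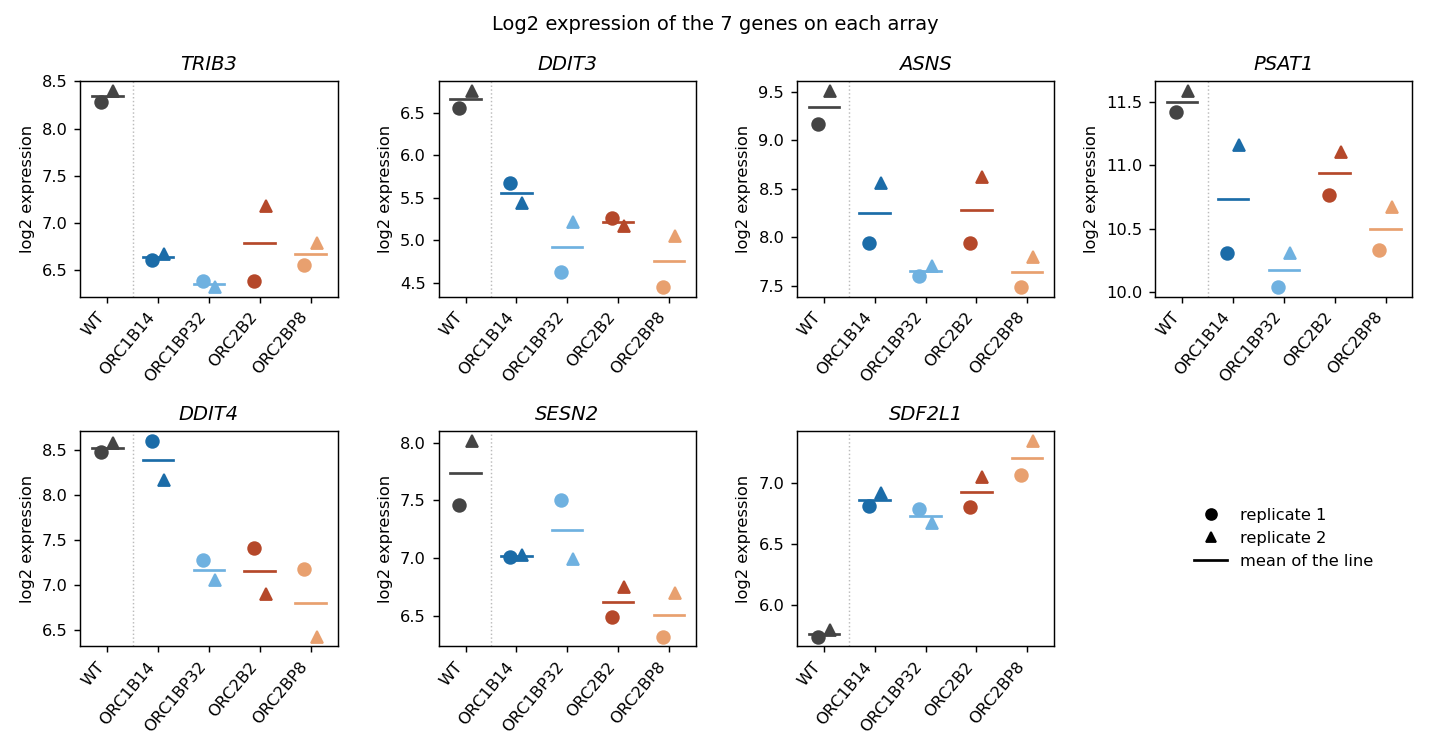
Log2 expression (y axis, a separate range in each panel) of the 7 genes on every array, by line (x axis). Circles are replicate 1, triangles replicate 2 and bars the mean of a line. In TRIB3, DDIT3, ASNS and PSAT1 all 8 mutant arrays lie below both WT arrays, in SDF2L1 all lie above, and in DDIT4 and SESN2 an array of an ORC1 line overlaps WT.

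Of the enzymes of amino acid synthesis, ASNS makes asparagine from aspartate and is a standard readout of ATF4 activity. Its arrays read 9.17 and 9.51 in WT, 7.94 and 8.56 in ORC1B14, 7.60 and 7.70 in ORC1BP32, 7.94 and 8.62 in ORC2B2, and 7.49 and 7.80 in ORC2BP8. No mutant array reached the WT range, and replicate 2 was the higher array in all 5 lines. The ASNS differences were -1.09, -1.69, -1.06 and -1.70 in that order of lines (SE 0.27 each, limma adjusted p = 0.102, 0.0901, 0.140 and 0.0180), with a call in ORC2BP8 alone. The mean of the 4 lines was 1.39 lower (SE 0.22, adjusted p = 0.0207), rank 34 from the lowest. The mean lost its call without either WT array (adjusted p up to 0.216), and ORC2BP8 without either WT or either ORC2BP8 array (up to 0.159).

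PSAT1 is the aminotransferase of serine synthesis. It read 11.42 and 11.59 in WT, 10.31 and 11.16 in ORC1B14, 10.04 and 10.31 in ORC1BP32, 10.77 and 11.11 in ORC2B2, and 10.33 and 10.67 in ORC2BP8. All mutant arrays lay below WT, but ORC1B14 spread widely between its arrays (10.74 ± 0.60, SD, n = 2). Its differences of -0.77, -1.33, -0.57 and -1.0 did not pass in any single line (SE 0.25 each, limma adjusted p = 0.171, 0.141, 0.419 and 0.104). The mean of the 4 lines stood 0.92 below WT with an adjusted p of 0.0570 (SE 0.20, rank 138 from the lowest). With the replicate number in the model its limma adjusted p was 0.00534. This mean was called in some other settings, among them without either ORC1B14 array, with a stricter filter and with quantile normalization.

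DDIT4 (REDD1) and SESN2 encode inhibitors of mTORC1, the kinase complex that couples growth to nutrients, and both are also induced by other stresses such as hypoxia or DNA damage. DDIT4 read 8.47 and 8.57 in WT, 8.60 and 8.16 in ORC1B14, 7.28 and 7.06 in ORC1BP32, 7.41 and 6.90 in ORC2B2, and 7.18 and 6.43 in ORC2BP8. ORC1B14 overlapped WT, and the other 6 mutant arrays lay well below both of these lines. Against WT the DDIT4 differences were -0.14, -1.35, -1.36 and -1.71 (SE 0.28 each, limma adjusted p = 0.844, 0.145, 0.0744 and 0.0180), and ORC2BP8 alone was called. The mean of the 4 lines was 1.14 lower (SE 0.22, adjusted p = 0.0399), rank 65 from the lowest, though it averages an ORC1B14 level near that of WT. The mean lost its call without the filter on dim probe sets (adjusted p = 0.0503) and without either WT array, either ORC1BP32 array, ORC2B2 replicate 2 or ORC2BP8 replicate 2 (adjusted p up to 0.258). ORC2BP8 lost its call without either WT array or its own replicate 2 (up to 0.144).

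SESN2 read 7.46 and 8.02 in WT, 7.01 and 7.03 in ORC1B14, 7.50 and 6.99 in ORC1BP32, 6.49 and 6.75 in ORC2B2, and 6.32 and 6.70 in ORC2BP8. Replicate 1 of ORC1BP32 lay within the WT range, and the 4 ORC2 arrays were the lowest of the 10. No single line passed, with differences of -0.72, -0.50, -1.12 and -1.24 (SE 0.25 each, limma adjusted p = 0.193, 0.562, 0.0928 and 0.0539). The mean of the 4 lines stood 0.89 below WT (SE 0.20, adjusted p = 0.0596, rank 150 from the lowest). With the replicate number in the model its limma adjusted p was 0.0220.

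SDF2L1, the ER-resident contrast gene, moved the other way. It read 5.74 and 5.79 in WT, 6.81 and 6.92 in ORC1B14, 6.79 and 6.67 in ORC1BP32, 6.80 and 7.05 in ORC2B2, and 7.07 and 7.35 in ORC2BP8. The lowest mutant array stood above both WT arrays. SDF2L1 rose by 1.09 in ORC1B14, 1.16 in ORC2B2 and 1.44 in ORC2BP8 (SE 0.19 each, limma adjusted p = 0.0407, 0.0371 and 0.00921), and stood 0.96 above WT in ORC1BP32 without passing (adjusted p = 0.141). The mean of the 4 lines was 1.16 higher (SE 0.15, adjusted p = 0.0107), rank 19 from the highest. That mean lost its call without either WT array (adjusted p up to 0.162), as did ORC2BP8, which also lost it without its replicate 2. The ORC1B14 call stood only with all arrays or without either ORC2BP8 array, and the ORC2B2 call was lost without either array of WT, ORC1BP32 or ORC2B2. Both were also lost without the filter and with arrays centred on their medians.

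Counted by line, 1 member was called lower in ORC1B14 (0.398% of all genes), 1 in ORC1BP32 (0.0185%), 2 in ORC2B2 (0.213%) and 4 in ORC2BP8 (0.685%). SDF2L1 was the 1 member called higher in ORC1B14 (0.185% of all genes), ORC2B2 (0.120%) and ORC2BP8 (0.250%). Of the 7 genes, 4 had all 8 mutant arrays below both WT arrays, as had 6.93% of all genes tested, and 1 had them above, as had 7.96%. On the mean of the 4 lines the 7 genes had a median log2 difference of -1.14, against 0.04 over all genes tested, whose 1st and 99th percentiles were -0.97 and 0.77. Without WT replicate 2 the count of members called on that mean fell from 5 to 0, and without WT replicate 1 to 1, which was TRIB3. The count over all genes fell likewise from 110 to 1 and 20, and it rose to 267 without ORC2BP8 replicate 1. Leaving out 1 of the WT arrays leaves a single array on the WT side of every comparison, with the spread taken from the other lines.

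**Figure D2:**
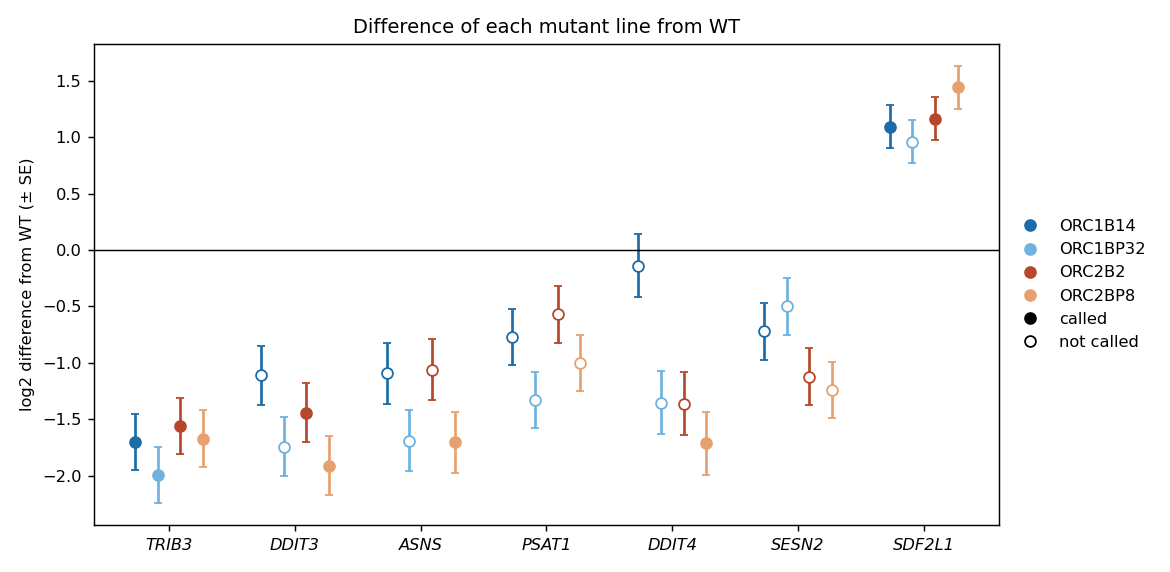
Log2 difference of each mutant line from WT (y axis) for the 7 genes (x axis), with ± 1 SE from limma as bars. Filled points passed an adjusted p of 0.05 and open points did not. TRIB3 is filled in all 4 lines, and DDIT4 in ORC1B14 sits near 0 at -0.14.

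The mutated gene was considered next. On the mean of the ORC1 lines, TRIB3 fell by 1.84, DDIT3 by 1.43 and ASNS by 1.39 and SDF2L1 rose by 1.03 (limma adjusted p = 0.0124, 0.0357, 0.0449 and 0.0385), 3 lower and 1 higher calls where 0.176% and 0.0926% of all genes were called. On the mean of the ORC2 lines, TRIB3 fell by 1.62, DDIT3 by 1.68, ASNS by 1.38, DDIT4 by 1.54 and SESN2 by 1.18 and SDF2L1 rose by 1.30 (adjusted p = 0.00978, 0.00978, 0.0268, 0.0179, 0.0394 and 0.00966). These are 5 lower and 1 higher calls, where 0.769% and 0.296% of all genes were called. No member was called on the ORC1 mean without either WT array, ORC1B14 replicate 1 or ORC1BP32 replicate 1, or on the ORC2 mean without either WT array. On the ORC1 mean DDIT3 also lost its call without ORC1B14 replicate 2 or either ORC2B2 array, ASNS without ORC1BP32 replicate 2 or ORC2BP8 replicate 2, and SDF2L1 without replicate 2 of ORC1B14 or ORC1BP32 or either ORC2B2 array. ASNS and SDF2L1 lost it there without the filter and with arrays centred on their medians too, and ASNS without an intensity trend. On the ORC2 mean ASNS also lost its call without ORC2B2 replicate 1 or ORC2BP8 replicate 2, and SESN2 without either ORC2B2 array or ORC2BP8 replicate 2 and with arrays centred on their medians.

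The direct difference between ORC1 and ORC2 lines passed for none of the 7 genes by limma, and 5 genes in all passed (306 lower and 446 higher at an unadjusted p under 0.05). DDIT4 was nearest, 0.79 higher in the ORC1 lines (SE 0.20, 95% interval 0.36 to 1.22, limma adjusted p = 0.250), and SESN2 stood 0.57 higher (0.17 to 0.97, adjusted p = 0.475). The intervals of the other members held 0, with ASNS at -0.01 (-0.44 to 0.41) and TRIB3 at -0.23 (-0.62 to 0.16). Within the ORC1 pair, DDIT4 was 1.22 lower in ORC1BP32 than in ORC1B14 (SE 0.28, -1.83 to -0.61, limma adjusted p = 0.325). DDIT3 differed by -0.64 (-1.20 to -0.07) in that pair and TRIB3 by -0.28 (-0.83 to 0.27). Within the ORC2 pair, ASNS differed by -0.64 in ORC2BP8 against ORC2B2 (-1.24 to -0.03) and TRIB3 by -0.12 (-0.67 to 0.43). No member passed in either pair, where 2 and 24 genes in all were called by limma (268 lower and 306 higher, and 325 lower and 264 higher, at an unadjusted p under 0.05). Single ORC1 lines were not tested against single ORC2 lines.

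The replicate numbers gave a further view, each mutant array set against the WT array of its own number. In 26 of 28 pairs of gene and line both numbers gave the same direction. The exceptions were DDIT4 in ORC1B14 (0.13 and -0.40) and SESN2 in ORC1BP32 (0.03 and -1.03). No such count was made over all genes. Replicate 2 read higher than replicate 1 in all 5 lines for ASNS and PSAT1, and for DDIT4 it read lower in all 4 mutant lines. The widest gap between arrays of a line was 0.85 in PSAT1 of ORC1B14, followed by 0.81 in TRIB3 of ORC2B2.

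**Figure D3:**
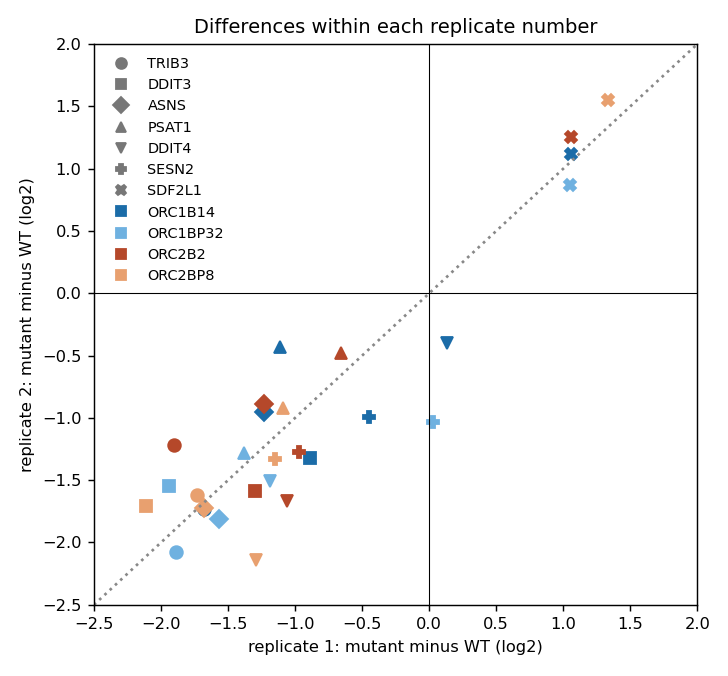
Log2 difference of a mutant array from the WT array of the same replicate number, replicate 1 on the x axis and replicate 2 on the y axis, with a shape per gene, a colour per line and the line of equal values dotted. Points lie in the lower left for the 6 stress targets and in the upper right for SDF2L1, except DDIT4 in ORC1B14 and SESN2 in ORC1BP32.

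Genes beside the members on the chromosome were read next. Over the 28 comparisons of gene and line, the median log2 difference of the nearest tested neighbours (10 on each side, fewer for TRIB3 near a chromosome end) lay between -0.18 and 0.30. Single neighbours spread more widely. In 23 of the 28 comparisons the member lay beyond all of its neighbours in its own direction. The exceptions were DDIT3, ASNS, PSAT1 and DDIT4 in ORC1B14, where the lowest neighbours stood at -1.41, -1.28, -1.25 and -1.01, and PSAT1 in ORC2B2, with a neighbour at -0.70. This count was not made over all genes. The members were chosen with earlier results known and mostly rank near an end of all genes, so a high count was likely from the start.

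None of the regulators upstream of these genes was called on the mean of the 4 lines in the main fit. Of 15 sensors and transducers listed, 12 were measured and 0 were called by limma (3 at an unadjusted p under 0.05, all lower), with a median of -0.20. For this and the lists that follow, 919 of all 10797 genes were lower and 946 higher at an unadjusted p under 0.05 in that comparison. ATF4 mRNA stood at 10.08 ± 0.20 in WT (SD, n = 2) and at 9.84, 9.76, 9.74 and 9.64 in the mutant lines, a difference of -0.34 (SE 0.15, adjusted p = 0.296). ATF4 is controlled largely at translation, which arrays do not measure. Of the eIF2 kinases, EIF2AK1 (activated by lack of heme) stood at 0.20, EIF2AK2 (double-stranded RNA) at 0.12, EIF2AK3 (PERK, ER stress) at -0.23 and EIF2AK4 (GCN2, amino acid shortage) at 0.04, and GCN1, which activates GCN2, at 0.17. Of the other ER sensors, ERN1 (IRE1) differed by -0.62 (adjusted p = 0.0653) and ATF6 by -0.53 (adjusted p = 0.0683), with XBP1, the target of IRE1, at -0.07. With the replicate number in the model ERN1 and ATF6 passed (limma adjusted p = 0.0258 and 0.0220). The oxidative stress factor NFE2L2 stood at -0.45, and DELE1 and OMA1, which relay mitochondrial stress, at -0.29 and -0.17. The small values of EIF2AK1, XBP1 and OMA1 changed sign when a WT array was left out.

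Of the other ATF4 and CHOP targets 1 was called. Of 30 listed, 17 were tested, 1 was called lower and 0 higher (5 lower and 1 higher at an unadjusted p under 0.05), and 14 lay below 0 and 3 above, with a median of -0.13. KLHL24, a Kelch-family gene, fell by 1.24 (limma adjusted p = 0.0131), a call lost without either WT array (adjusted p up to 0.162). HMOX1, heme oxygenase, had the highest value at 0.60 (adjusted p = 0.215).

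The aminoacyl-tRNA synthetases, which load tRNAs with amino acids and are widely induced by ATF4, all had values below 0. All 12 listed were tested, 3 were called lower and 0 higher (0.602% and 0.417% over all genes), 7 were lower at an unadjusted p under 0.05 and the median was -0.40. AARS1 fell by 0.98, SARS1 by 0.87 and GARS1 by 0.67 (limma adjusted p = 0.0107, 0.0264 and 0.0366), where GARS1 was picked after its value was seen. The smallest shift was TARS1 at -0.24. AARS1 and SARS1 lost their calls without either WT array, SARS1 also without either ORC1BP32 array or ORC2B2 replicate 2 and with arrays centred on their medians, and GARS1 in 7 of 10 such omissions, with arrays centred on their medians and without an intensity trend. The genes beside AARS1 had a median of -0.50 in ORC2BP8 and of -0.03 to 0.10 in the other lines, and those beside GARS1 of -0.32 to -0.20 over the lines, and the part of these stretches in the values was not tested. The AARS1 promoter, shown for comparison with ASNS, holds a C/EBP-ATF element 187 bases before its start, read here on the strand of the gene, where it appears as the reverse complement (capitals, chr16:70289672-70289701, minus strand).
AARS1: tctcgcagTTgCATCAgccaagttagagcc
KLHL24 held an AP-1 element, 203 bases before its start, GARS1 held a C/EBP-ATF element on the opposite strand, 33 bases before the second of its start sites, and SARS1 held no match.

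The other genes listed for serine, glycine, proline and asparagine synthesis showed no common direction. This list leaves out the members ASNS, which makes asparagine, and PSAT1, both lower as given above. It includes PHGDH, at -0.69, which is described below with the partners of the members. Of 18 listed, 10 were tested and 0 were called by limma (3 lower and 1 higher at an unadjusted p under 0.05), 5 below and 5 above 0, with a median of -0.02. CTH, which makes cysteine, was lowest at -0.75 (adjusted p = 0.0771), and SHMT1, a serine hydroxymethyltransferase, highest at 0.55 (adjusted p = 0.158). None of the 12 amino acid transporters listed was named in the annotation used here (0 of 12), so they were not analysed here.

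Beside SDF2L1, at 1.16 on the mean of the 4 lines, none of the ER chaperone and folding genes tested was called on that mean. Of 32 chaperone and folding genes listed, 14 were tested and 0 were called by limma (1 lower and 4 higher at an unadjusted p under 0.05), 3 below and 11 above 0, with a median of 0.12. The highest was CRELD2, an ER stress-induced secretory pathway protein, at 0.59 (adjusted p = 0.0676). SEL1L, of ER-associated degradation, was lowest at -0.67 (adjusted p = 0.0831). In ORC2BP8 1 of the 14 tested genes was called lower by limma (0.685% of all genes), and in each other line 0. The untested genes of the list, among them HSPA5, HSP90B1, DNAJB11 and PDIA4, were not named in the annotation used here. Among partners and paralogs of the members, 20 of 25 were tested and 0 called by limma (2 lower and 1 higher at an unadjusted p under 0.05), with a median of 0.05. PHGDH, the first enzyme of serine synthesis and so the step before PSAT1, was lowest at -0.69 (adjusted p = 0.0506). MTOR, the kinase that DDIT4 and SESN2 restrain, was highest at 0.41 (adjusted p = 0.179). In ORC2BP8, and on the ORC2 mean, 1 gene of this list was called lower by limma (0.685% and 0.769% of all genes).

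**Figure D4:**
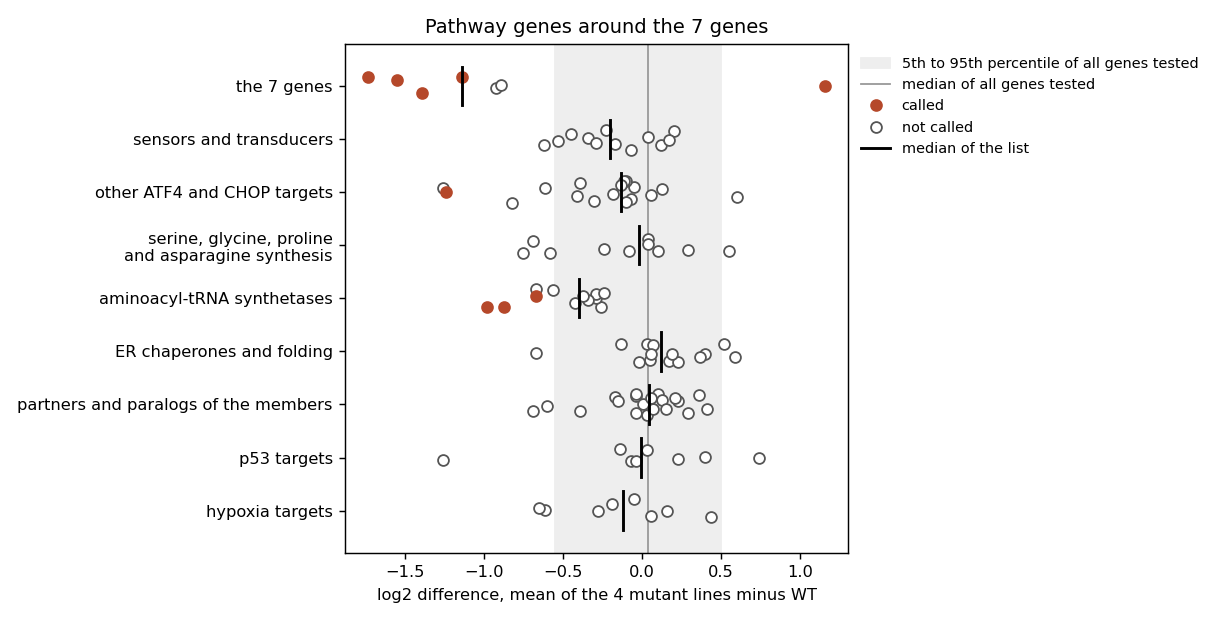
Log2 difference of the mean of the 4 mutant lines from WT (x axis) for each tested gene of the lists (y axis). Filled points were called, black bars are list medians, and the grey band spans the 5th to 95th percentile of all genes tested, -0.55 to 0.50. All 12 aminoacyl-tRNA synthetases lie below 0, and 11 of 14 ER chaperone and folding genes above.

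The genes whose profiles over the 10 arrays were most like those of 3 members were found by the root mean square (RMS) difference of log2 values, each gene set to 0 at its WT mean. For TRIB3 they were ANKRD22 (RMS 0.33), ASNS (0.40), DDIT3 (0.41) and FGF19 (0.45), and for DDIT3 they were ASNS (0.35), TRIB3 (0.41), FGF19 (0.46) and ANKRD22 (0.46). ASNS was thus close to both, while ANKRD22 is dim, at 4.55 ± 0.57 in WT (SD, n = 2) and, below the array medians, 2.80 to 3.10 in the mutants. FGF19, an endocrine fibroblast growth factor, stood at 9.06 ± 0.75 in WT and 7.40 to 7.85 in the mutant lines. For SDF2L1 the nearest were MCM4 (0.20), HSPA1A (0.24), MCM2 (0.24) and CDC6 (0.25). MCM2 and MCM4 are subunits of the replicative helicase and CDC6 helps load it, while HSPA1A is a cytosolic heat shock protein whose near-identical copy HSPA1B may share its probes. SDF2L1 rose by 1.16 on the mean of the 4 lines, beside 1.07 for MCM4, 1.05 for HSPA1A, 1.09 for MCM2 and 0.98 for CDC6, given as values. Most of the arrays are mutant arrays, so the RMS measure picks genes with a like difference from WT. The closeness of these means follows from that choice.

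The arrays were alike as a whole, with medians of 3.87 to 3.96 and correlations of 0.979 to 0.984 within a line and 0.968 to 0.989 between lines. ORC1 and ORC2 were not named in the annotation used here, so the labels were not checked against them. Of 9 probe sets of colorectal epithelial markers, 8 stood at or above the array median on all arrays, with EPCAM at 9.75 to 10.46 and CEACAM5 below it (2.85 to 3.51). The mean of these probe sets was 6.52 to 6.75 in WT and 6.75 to 7.14 in the mutant lines, and its part in the results was not tested. Of the fibroblast markers, LUM and DCN lay below the median and THY1 above, with a mean of 3.03 to 3.30 in WT and 3.05 to 3.22 in the mutant lines. The blood markers LYZ and CD14 lay below it. Of the markers of liver and kidney lines, ALB and AFP lay below and PAX2, PAX8 and APOA1 above.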

How the data were processed

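The authors deposited log2 expression values for 10 arrays, 1 per probe set. Affymetrix Expression Console is named in the submitters' processing notes. The log base was read from the values (1.45 to 13.7), and the normalization is not given in the sources used here. RNA was extracted with Trizol, per the labels' protocols. Of 53617 probe sets, 16098 had 1 symbol and 37519 are unnamed here. A gene was tested when its probe set lay at or above the array median on at least 2 arrays, and the brightest probe set stood for the gene. Differences were fitted in R 4.3.3 with limma 3.58.1 (5 line means, eBayes with an intensity trend; degrees of freedom 5 residual, 5.83 prior). A gene is called when its two-sided p, adjusted by Benjamini-Hochberg across the 10797 genes, is under 0.05. The fit was tested on simulated data with independent noise and equal shifts in all mutant lines, larger than the mean differences of the members. These data held no effect shared by a replicate number, so neither that case nor smaller shifts were tested.

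The 7 genes, the 9 pathway lists and the markers were chosen with earlier results of these data known. The text names the 7 genes, every measured sensor, the 2 highest and 2 lowest called genes of a list, or the farthest where none was called, and the 4 genes most like TRIB3, DDIT3 and SDF2L1. Alternatives were the filter, quantile normalization, centring on array medians, the probe set rule, the variance prior, the replicate block and each array left out. Promoters are RefSeq's (GRCh38.p14), 250 bases before each start.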

Additional observations from a re-analysis of the deposited data

How the results depend on the processing

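Leaving out 1 array at a time, members called numbered 0 to 2 in ORC1B14, 0 to 1 in ORC1BP32, 0 to 4 in ORC2B2, 0 to 6 in ORC2BP8, 0 to 6 on the mean of the 4 lines, 0 to 4 on the ORC1 mean and 0 to 7 on the ORC2 mean, against 2, 1, 3, 5, 5, 4 and 6 with all arrays, and 0 between mutant lines throughout. Without the filter they numbered 1 in ORC1B14, 0 in ORC1BP32, 1 in ORC2B2 and 2 on the ORC1 mean. With arrays centred on their medians they numbered 1, 0, 0 and 2 in that order, and with quantile normalization 2, 0, 2 and 4. In ORC2B2 they also numbered 2 with a stricter filter and with each other variance prior. Over all genes, the mean of the 4 lines gave 110 calls (65 lower, 45 higher), 204 with quantile normalization (101 lower, 103 higher), 63 with centring (46 lower, 17 higher) and 709 with the block (355 lower, 354 higher).

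Directions that turned belonged to uncalled differences. DDIT4 in ORC1B14 went from -0.14 to 0.08 without its replicate 2. ASNS between ORC1 and ORC2 lines went from -0.01 to 0.01 with quantile normalization and lay between -0.18 and 0.16 over the omissions, at 0.14 without ORC1B14 replicate 1, 0.01 without ORC1BP32 replicate 1, 0.16 (ASNS) without ORC2B2 replicate 2 and 0.06 without ORC2BP8 replicate 2. Between the ORC1 lines SESN2 went from 0.22 to -0.03 without ORC1BP32 replicate 1 (highest 0.47 over the omissions). Between the ORC2 lines, the omissions gave ranges of -0.31 to 0.07 for SESN2 (also 0.02), -0.52 to 0.29 for TRIB3 and -0.72 to 0.02 for DDIT4. On the mean of the 4 lines they gave -0.41 to 0.07 for OMA1, -0.02 to 0.90 for BNIP3, -0.07 to 0.47 for EIF2AK1 and -0.35 to 0.21 for XBP1, each end without a WT array. The cause was not tested.

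With the replicate block, members called rose to 5 in ORC1B14, 6 in ORC1BP32, 6 in ORC2B2, 7 in ORC2BP8, 7 on the mean of the 4 lines, 6 on the ORC1 mean and 7 on the ORC2 mean, with 1 (DDIT4, adjusted p = 0.0475) between ORC1 and ORC2 lines. On the mean of the 4 lines the block brought PSAT1 (limma adjusted p = 0.00534), SESN2 (0.0220), ATF6 (0.0220) and ERN1 (0.0258) past the threshold. Of the other list genes named here, it also brought PHGDH (0.0168), BAX (0.0229), CRELD2 (0.0277), SEL1L (0.0277), CTH (0.0363) and NDRG1 (0.0423) past it. The deviations of same-numbered arrays correlated by over 0.1 in 9 of 10 pairs of lines (0.0812 to 0.568), and array medians were 3.94 to 3.96 for replicate 1 and 3.87 to 3.89 for replicate 2. No label says what the numbers share and 1 pair of lines fell short of 0.1, so the numbers were not taken to pair the samples. With 2 arrays a line, the number of arrays limits the precision.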

Other observations

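The tested targets of p53 and of hypoxia showed no common direction on the mean of the 4 mutant lines. These pathways can also induce DDIT4 or SESN2, and their part in the values of these genes was not tested. CDKN1A and MDM2 of the p53 list and CA9 and SLC2A1 of the hypoxia list were not among the genes tested. Of 15 p53 targets listed, 8 were tested and 0 called by limma (1 lower and 1 higher at an unadjusted p under 0.05), 4 below and 4 above 0, with a median of -0.01. GDF15, a secreted stress cytokine also induced by CHOP, was lowest at -1.26 with a wide error (SE 0.47, adjusted p = 0.203), and BAX, which promotes apoptosis, was highest at 0.74 (adjusted p = 0.0589). Of 14 hypoxia targets listed, 8 were tested and 0 called by limma (2 lower and 0 higher at an unadjusted p under 0.05), 5 below and 3 above 0, with a median of -0.12. NDRG1 was lowest at -0.65 (adjusted p = 0.160) and BNIP3, a mitophagy receptor, highest at 0.44 (adjusted p = 0.344).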
